A study of Homo sapiens with 4 samples.

Results

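ITGBL1 and 9 integrin genes (ITGA2, ITGA3, ITGA5, ITGA6, ITGAV, ITGB1, ITGB4, ITGB5 and ITGB6) are described here in nascent RNA from HCT116 cells, a colon cancer cell line, treated with vehicle or with a compound that depletes the chromatin-associated factor KAP1. They are 10 of the 19901 protein-coding genes counted, found by their gene symbols. The set was chosen on the comparison of dTAG with DMSO itself, in which ITGBL1 was among the genes that gained most. The fold changes of these 10 genes are therefore given as a description, without p-values, and nothing is inferred from their number. The cells carried KAP1 with a degron, a tag through which the dTAG compound directs the protein to the proteasome, and came from a single clone (D5). All 4 libraries share this background, so that the untreated parental line is not part of the comparison. Cells grown in DMEM with serum received DMSO, the vehicle, or 500 nM dTAG-13 for 8 h, and 4-thiouridine (500 μM) was then added for 10 min to mark RNA as it was made. Marked RNA was purified and sequenced (TT-Seq) from 2 biological replicates per condition.

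Integrins are transmembrane receptors built from 1 alpha and 1 beta chain, which hold cells to the extracellular matrix and to each other and signal in both directions across the membrane. ITGB1 is the common beta chain and pairs with ITGA2 (collagen and laminin receptor), ITGA3 and ITGA6 (laminin receptors), ITGA5 (fibronectin receptor) and ITGAV (receptor for RGD-containing ligands). ITGB4 pairs with ITGA6 in the hemidesmosomes of epithelia, and ITGB5 and ITGB6 pair with ITGAV. ITGBL1 encodes a secreted protein with EGF-like repeats that resemble the stalk of integrin beta chains, and it is neither an alpha nor a beta subunit.

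Promoter windows, from 250 bases before to 50 bases after an annotated start, came from RefSeq (GRCh38.p14), where 8 of the 10 genes had 13 windows. Shown are those of ITGBL1 and ITGA2, the genes of the set with the largest and the next largest difference between conditions, of ITGA5, which held a match to the AP-1 motif, and of ITGB6, which was at the edge of detection. Sequences read 5′ to 3′ on the strand of the gene. Capitals mark matches to the AP-1 motif (TGANTCA) or to the GC box (GGGCGG, read on either strand).
ITGBL1 promoter, chr13:101452425-101452724, plus strand: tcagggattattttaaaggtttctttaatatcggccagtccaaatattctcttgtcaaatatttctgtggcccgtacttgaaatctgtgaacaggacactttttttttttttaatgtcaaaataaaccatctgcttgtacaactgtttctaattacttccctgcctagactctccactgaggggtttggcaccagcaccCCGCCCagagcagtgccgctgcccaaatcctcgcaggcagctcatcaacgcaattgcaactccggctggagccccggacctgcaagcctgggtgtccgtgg
ITGA2 promoter, chr5:52989102-52989401, plus strand: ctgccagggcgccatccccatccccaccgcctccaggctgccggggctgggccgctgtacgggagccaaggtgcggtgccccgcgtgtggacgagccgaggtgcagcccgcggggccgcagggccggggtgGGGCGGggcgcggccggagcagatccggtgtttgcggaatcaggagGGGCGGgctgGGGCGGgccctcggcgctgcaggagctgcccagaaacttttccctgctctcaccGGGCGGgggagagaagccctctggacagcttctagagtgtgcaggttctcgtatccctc
ITGA5 promoter, chr12:54419217-54419516, minus strand: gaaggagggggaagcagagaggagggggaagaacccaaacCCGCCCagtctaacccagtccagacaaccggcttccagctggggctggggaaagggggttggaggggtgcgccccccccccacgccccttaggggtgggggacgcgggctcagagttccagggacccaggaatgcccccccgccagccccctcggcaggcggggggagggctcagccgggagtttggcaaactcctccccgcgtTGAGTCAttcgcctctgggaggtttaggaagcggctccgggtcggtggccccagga
ITGB6 promoter, chr2:160200223-160200522, minus strand: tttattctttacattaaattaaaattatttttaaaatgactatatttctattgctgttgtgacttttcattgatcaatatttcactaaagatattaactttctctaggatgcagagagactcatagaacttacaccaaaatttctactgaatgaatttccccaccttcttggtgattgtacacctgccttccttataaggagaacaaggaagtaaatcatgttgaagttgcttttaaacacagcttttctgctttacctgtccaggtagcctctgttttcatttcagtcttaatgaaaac

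The ITGBL1 window had 47.7% GC and 9 CpG dinucleotides, below the median over all 35116 RefSeq windows of 58.7% GC and 14 CpG. The ITGA2 window was GC-rich, with 72.7% GC, 27 CpG and 4 GC boxes. The ITGB6 window was the poorest in GC of the 13, at 31.7% with 0 CpG, and held neither motif. Both strands were searched, and these 2 motifs share no letters in any of the 4 windows shown. A GC box was present in 9 of the 13 windows and in 45.0% of all windows, whereas an AP-1 match was present in 1 of the 13 windows, that of ITGA5, and in 7.71% of all windows. The AP-1 match of ITGA5 lies close to its annotated start. Of the other motifs searched, that of the TEAD factors (GGAATG) was present in 2 of the 13 windows and in 14.0% of all windows. A TATA box (TATAAA) was present in 2 of the 13 and in 11.5% of all windows. The cyclic AMP response element (TGACGTCA) was present in 0 of the 13 and in 1.85% of all windows. An E-box (CACGTG) was present in 1 of the 13 and in 7.26% of all windows. A match is a match of letters only. Some genes had several windows, and those of ITGA6 overlap and share a GC box, so the 13 are not separate promoters.

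Counts per library were between 93105627 and 102314741, and every count refers to the whole gene interval, introns included. CPM are counts relative to library size, with the size scaled by edgeR's TMM factors. Tests covered the 12612 genes that reached 50 counts in each of the 4 libraries, with edgeR's quasi-likelihood test, and a gene is called higher or lower at a Benjamini-Hochberg adjusted p under 0.05. The libraries differed by gene composition within a condition: the log2 ratio of DMSO replicate 2 over replicate 1 followed GC content (Spearman's rho 0.75 across the tested genes, which are not independent) and gene length (rho -0.47), as did the log2 fold change of dTAG over DMSO (rho -0.56 with GC content, 0.42 with length). ERCC spike-in RNAs made up 0.0103% to 0.0265% of the gene counts, and libraries scaled to these ERCC totals moved the median over all tested genes from -0.015 to 0.63 on the log2 scale. TRIM28, the gene of KAP1, stood at 61.7 and 69.8 CPM with DMSO and 53.5 and 47.9 CPM with dTAG. It was called lower, with a log2 fold change of -0.37 (standard error 0.092), and was at -0.088 after removal of GC and length trends. These values do not check the labels, because the compound acts on the protein. All 6 epithelial markers were well expressed (summed level 1096 to 1216 CPM), none was called, and the summed levels of 6 fibroblast, 5 endothelial and 5 leukocyte markers were 5.20 to 5.91, 2.25 to 3.54 and 3.47 to 4.23 CPM, with COL1A2 and LUM at 0 in all libraries. In such bulk samples, fewer cells that transcribe a gene and less RNA per cell cannot be told apart.

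ITGBL1 (ENSG00000198542.13) lies on chromosome 13 of GRCh38 from 101452592 to 101720856, on the plus strand. It spans 268.3 kb, at percentile 95.0 of gene length among the tested genes, and exons make up 2.30% of the interval, so that introns are nearly all of the counted interval. With DMSO, its level was 9.80 and 8.66 CPM. With dTAG, it was 21.1 and 21.4 CPM. Both dTAG libraries stood far above both DMSO libraries, and the gap between conditions was many times the gap within either. The means were 9.23 ± 0.809 CPM (SD, n = 2) with DMSO and 21.2 ± 0.160 CPM (SD, n = 2) with dTAG. The raw counts behind these levels were 971 and 864 with DMSO and 2116 and 1927 with dTAG. On the log2 scale the fold change was 1.20 (standard error 0.12), a 2.30-fold higher level, the third largest of all 12612 tested genes. It was between 1.04 and 1.83 over 15 alternative settings, and between 1.11 and 1.29 when any one library was left out. The lowest value followed removal of the GC and length trends, and the highest the scaling to ERCC totals.

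**Figure D1:**
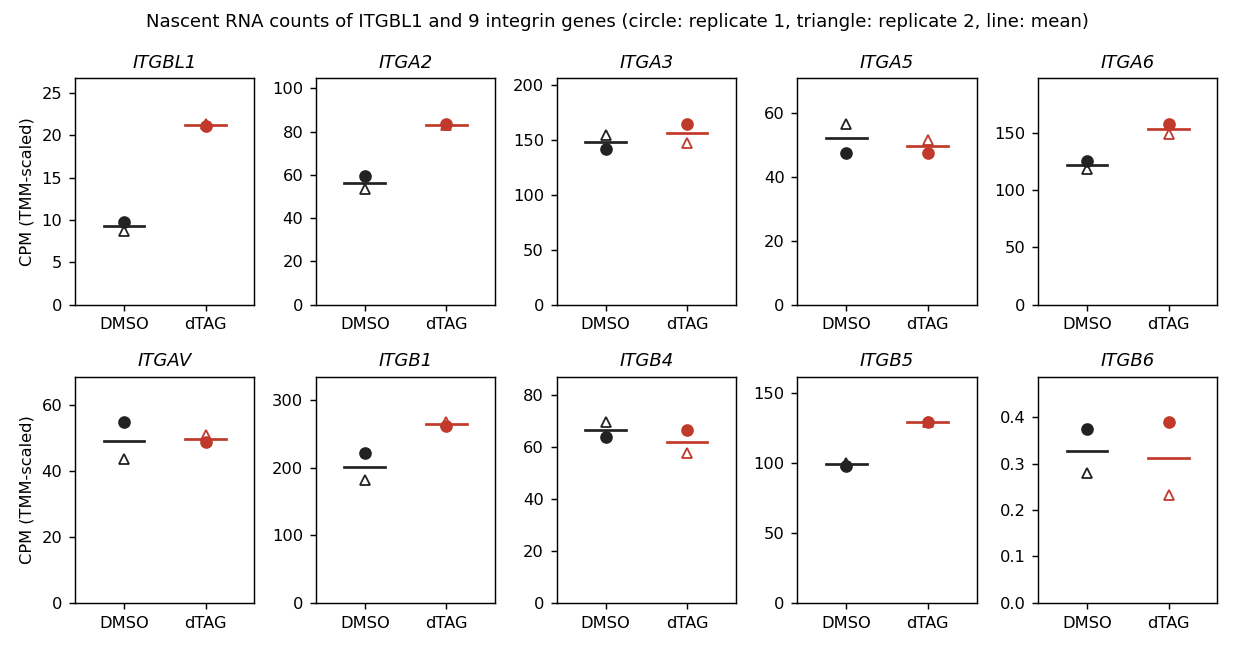
TMM-scaled CPM (vertical axes, each starting at 0) of ITGBL1 and 9 integrin genes in the DMSO (black) and dTAG (red) libraries, with circles for replicate 1, triangles for replicate 2 and a line at the mean. Both dTAG libraries lie above both DMSO libraries for ITGBL1 (21.1 and 21.4 against 9.80 and 8.66 CPM), ITGA2, ITGA6, ITGB1 and ITGB5, and the conditions overlap for the other 5 genes.

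The end of ITGBL1 overlaps that of FGF14, a gene on the opposite strand, over 3.75% of the ITGBL1 interval. FGF14 had 3 and 1 counts with DMSO and 11 and 10 with dTAG, a small part of the counts on ITGBL1. Whether the counting used the strand is not given in the sources used here, and neither is how reads in shared intervals were assigned. A lncRNA on the same strand (ENSG00000276012) also lies within ITGBL1 and was not among the genes counted.

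Within 1 Mb of ITGBL1, none of the 4 tested genes was called (edgeR's quasi-likelihood test), where 7.1% of all tested genes were. By the same test, 3355 of all 12612 tested genes had an unadjusted p under 0.05, and 0 of these 4 did. Their log2 fold changes were 0.029 for TMTC4 (adjusted p = 0.84), 0.093 for GGACT (adjusted p = 0.65), 0.17 for TPP2 (adjusted p = 0.22) and 0.10 for PCCA (adjusted p = 0.50). PCCA and TPP2 were each called without DMSO replicate 1 and in no other of the 15 alternatives, TMTC4 and GGACT in none. The nearest tested neighbour, TMTC4, is 777.5 kb away. NALCN, an ion channel gene 36.1 kb from ITGBL1, was under the count minimum, with 24 and 24 counts with DMSO and 45 and 32 with dTAG. METTL21C, 964.9 kb away, had 0 counts in all libraries.

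Among the alpha chains, ITGA2 differed most. ITGA2 (ENSG00000164171.10, chromosome 5 from 52989325 to 53094779, plus strand), the alpha chain of the collagen-binding integrin with ITGB1, stood at 59.4 and 53.4 CPM with DMSO and 83.6 and 82.9 CPM with dTAG. The conditions did not overlap, and the dTAG libraries lay closer together than the DMSO libraries. The means of ITGA2 were 56.4 ± 4.23 CPM (SD, n = 2) under DMSO and 83.2 ± 0.549 CPM (SD, n = 2) under dTAG, and the fitted log2 fold change came to 0.56 (standard error 0.086). ITGA6 (ENSG00000091409.14, chromosome 2 from 172427353 to 172506282, plus strand), a laminin receptor chain, stood at 125.5 and 118.1 CPM with DMSO and 157.9 and 149.2 CPM with dTAG. Here too both dTAG libraries were above both DMSO libraries. The means were 121.8 ± 5.22 and 153.6 ± 6.17 CPM (SD, n = 2 each), and the log2 fold change was 0.33 (standard error 0.085).

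The other alpha chains overlapped between conditions. ITGA3 (ENSG00000005884.17, chromosome 17 from 50055967 to 50090481, plus strand), the second laminin receptor chain, stood at 141.7 and 154.5 CPM with DMSO and 165.0 and 147.2 CPM with dTAG. ITGA5 (ENSG00000161638.10, chromosome 12 from 54395260 to 54419460, minus strand), the fibronectin receptor chain, stood at 47.5 and 56.6 CPM with DMSO and 47.5 and 51.5 CPM with dTAG. ITGAV (ENSG00000138448.11, chromosome 2 from 186590064 to 186680901, plus strand) stood at 54.9 and 43.6 CPM with DMSO and 48.8 and 50.8 CPM with dTAG. For ITGA3, ITGA5 and ITGAV, the DMSO replicates differed from each other by more than the condition means did. The log2 fold changes were 0.076 (standard error 0.089) for ITGA3, -0.073 (0.097) for ITGA5 and 0.017 (0.10) for ITGAV. These 3 values depended on the scaling and on single libraries. ITGAV was 0.19 without DMSO replicate 1 and -0.14 with only that replicate of the DMSO pair. It was -0.24 with a factor from the ERCC RNAs as a covariate and -0.17 after removal of the GC and length trends. ITGAV was called lower in both of the latter fits. ITGA5 was between -0.19 and 0.057 with 1 library left out. ITGA3 was 0.22 with the ERCC factor and 0.20 after removal of the trends, and was called higher in both.

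Of the beta chains, ITGB1 and ITGB5 were higher with dTAG. ITGB1 (ENSG00000150093.18, chromosome 10 from 32900318 to 33005792, minus strand), the shared beta chain, stood at 222.0 and 181.4 CPM with DMSO and 262.5 and 267.9 CPM with dTAG. Its conditions did not overlap, although the DMSO libraries were spread widely, at 201.7 ± 28.7 CPM (SD, n = 2) against 265.2 ± 3.85 CPM (SD, n = 2) with dTAG. For ITGB1 the fitted log2 fold change was 0.39 (standard error 0.099), and removing DMSO replicate 1 or 2 in turn gave 0.55 and 0.26. Its lowest value was 0.17, with the ERCC factor as a covariate. ITGB5 (ENSG00000082781.11, chromosome 3 from 124761947 to 124901418, minus strand), a partner of ITGAV, stood at 98.0 and 99.4 CPM with DMSO and 128.9 and 129.0 CPM with dTAG. This was the tightest pattern of the 10 genes, with both pairs of replicates almost coinciding. Its log2 fold change was 0.39 (standard error 0.082) and stayed between 0.37 and 0.39 with any one library left out.

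ITGB4 (ENSG00000132470.13, chromosome 17 from 75721327 to 75757818, plus strand), the hemidesmosomal partner of ITGA6, stood at 63.7 and 69.6 CPM with DMSO and 66.5 and 57.7 CPM with dTAG. The conditions overlapped, and the log2 fold change was -0.10 (standard error 0.091). GALK1, the galactokinase gene on the opposite strand, covers 17.1% of the ITGB4 interval. GALK1 had a log2 fold change of -0.54 (adjusted p = 0.036, edgeR's quasi-likelihood test), with an adjusted p up to 0.77 over the alternatives and a value of 0.15, below the median of all genes of 0.63, with ERCC totals as library sizes. It was not called with the ERCC factor (-0.18) or after removal of GC and length trends (-0.25). ITGB6 (ENSG00000115221.11, chromosome 2 from 160099665 to 160200313, minus strand), the epithelial partner of ITGAV, had 37 and 28 counts with DMSO and 39 and 21 with dTAG. These fell under the count minimum, so ITGB6 was not among the tested genes, and its conditions overlapped. With a minimum of 10 counts in 2 libraries, its log2 fold change was -0.056.

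Of the 10 genes, 9 passed the count minimum. Of these 9, 5 were called higher (ITGBL1, ITGA2, ITGA6, ITGB1 and ITGB5), where 3.44% of all tested genes were, 0 were called lower, where 3.66% were, and 4 were not called. In either direction, 7.1% of all tested genes were called (434 higher and 461 lower). For the same 5, both dTAG libraries lay above both DMSO libraries, as for 28.1% of all tested genes, and for none of the 9 did both lie below, as for 30.7%. Because the contrast chose the genes, these shares are printed for scale only. The median log2 fold change of the 8 tested integrin genes was 0.21, with values from -0.10 to 0.56, beside -0.015 over all tested genes. All 5 kept a positive sign under each of the 15 alternatives. ITGBL1 and ITGA2 were called in 14 of the 15 and ITGA6, ITGB1 and ITGB5 in 11 of the 15. ITGA6, ITGB1 and ITGB5 were not called without dTAG replicate 1 or without dTAG replicate 2, and none of the 5 was called with ERCC totals as library sizes. With upper-quartile scaling, which changed the split of all calls to 255 higher and 869 lower, the same 5 genes were called.

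**Figure D2:**
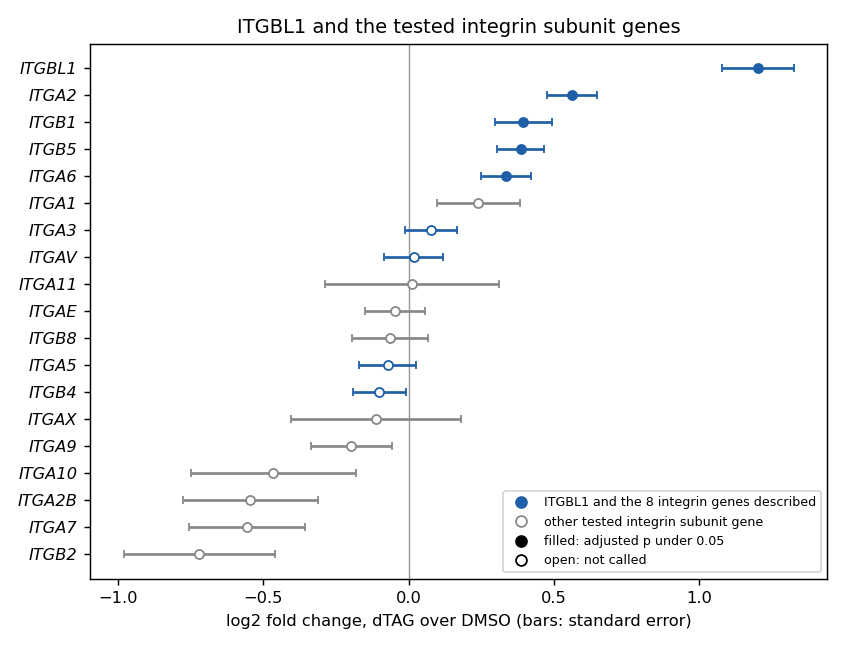
Log2 fold change of dTAG over DMSO (horizontal axis) with its standard error as bars for ITGBL1 and the 18 tested integrin subunit genes, in blue for ITGBL1 and the 8 integrin genes described above and in grey for the other 10. Filled points are genes called at an adjusted p under 0.05, and ITGBL1, at 1.20, stands apart from ITGA2, at 0.56, the next in order.

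Gene length and GC content moved with these differences, and their part was not tested. The 5 genes called higher span 78.9 to 268.3 kb, with 36.4% to 46.6% GC over the gene interval. ITGA3, ITGA5 and ITGB4 span 24.2 to 36.5 kb, with 52.6% to 58.0% GC. ITGAV is the exception, since it spans 90.8 kb with 35.8% GC and did not differ between conditions by more than its replicates. After removal of both trends, the log2 fold changes were 1.04 for ITGBL1, 0.40 for ITGA2, 0.38 for ITGB5, 0.26 for ITGB1 and 0.24 for ITGA6. The same removal gave 0.20 for ITGA3, 0.11 for ITGB4, 0.073 for ITGA5 and -0.17 for ITGAV. ITGA3 was then called higher and ITGAV lower, beside the 5 genes named above. The order of ITGBL1 and ITGA2 at the top was kept.

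**Figure D3:**
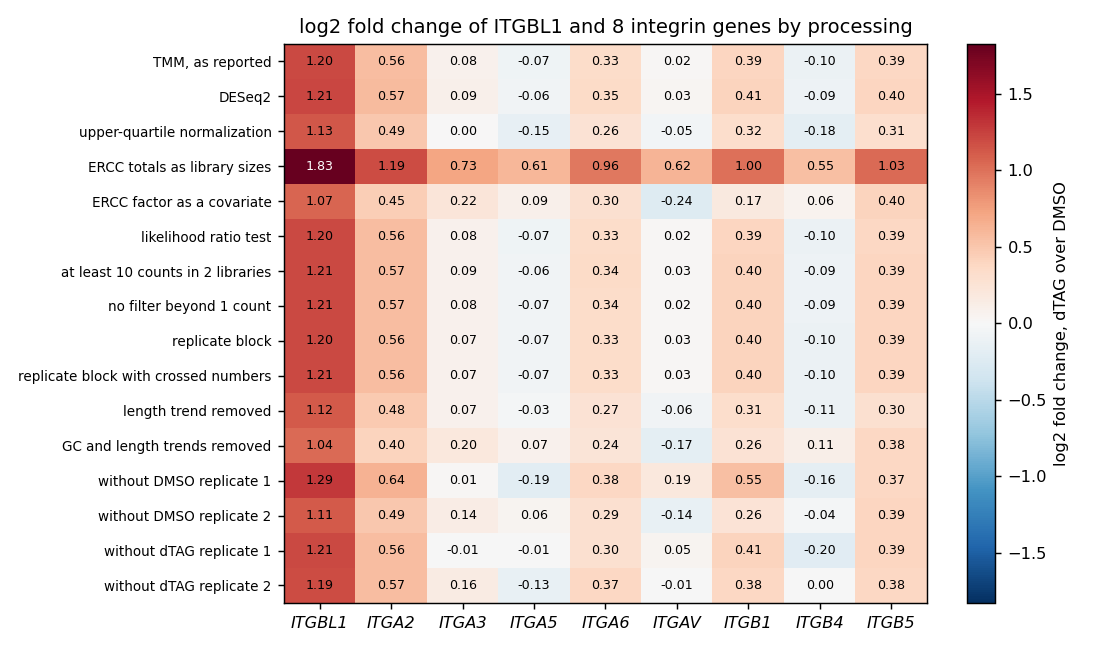
Log2 fold change of dTAG over DMSO (numbers and colour) for ITGBL1 and the 8 tested integrin genes (columns) under the reported processing and 15 alternatives (rows of the grid). ITGBL1 is between 1.04 and 1.83 throughout, and every gene is higher with ERCC totals as library sizes, where the median of all tested genes is 0.63.

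The levels of the genes were compared per kilobase of gene in the DMSO libraries, as a description. ITGA3 was the highest at 4.29 CPM per kb, above 88.6% of the tested genes. It was followed by ITGA5 at 2.15, ITGB1 at 1.91, ITGB4 at 1.83 and ITGA6 at 1.54 CPM per kb. The replicates of ITGA5 overlapped those of ITGB1, and those of ITGB1 overlapped those of ITGB4, whereas ITGA3, ITGB4 and ITGA6 were each apart from the next gene in the order. ITGB5 (0.708 CPM per kb), ITGAV (0.542) and ITGA2 (0.535) formed a lower group, in which ITGAV and ITGA2 overlapped. ITGBL1 followed at 0.0344 CPM per kb, at percentile 5.20 of the tested genes, and ITGB6 at 0.00325 CPM per kb. ITGBL1 thus had a basal level more than an order of magnitude below that of every integrin subunit gene of the set except ITGB6, and remained below them with dTAG.

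**Figure D4:**
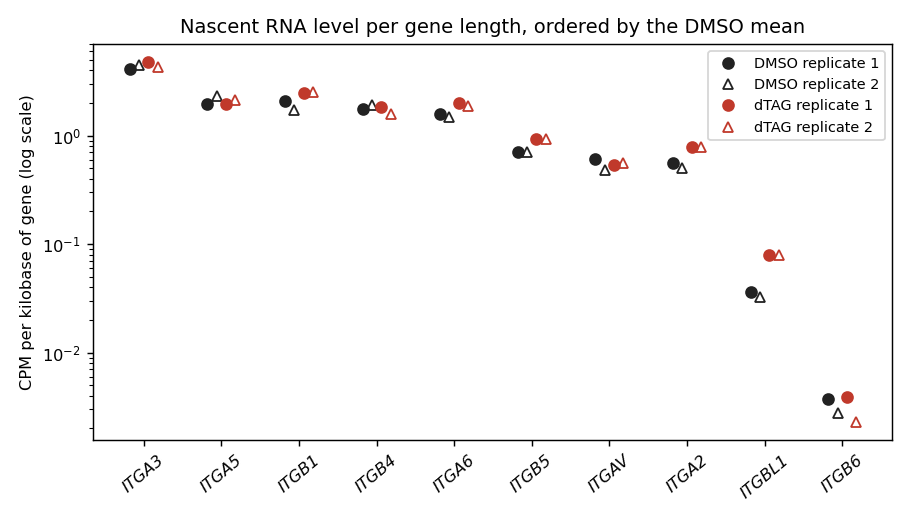
TMM-scaled CPM per kilobase of gene (log axis) in each of the 4 libraries for ITGBL1 and the 9 integrin genes, ordered by the DMSO mean from ITGA3 (4.29) to ITGB6 (0.00325). ITGBL1 lies between ITGA2 and ITGB6 in every library.

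The summed level per length of the alpha chains, and that of the beta chains, was divided among the genes. ITGA3 gave 46.5% and 48.2% of the summed level of the 5 alpha chains with DMSO and 47.5% and 44.3% with dTAG. The share of ITGA2 was 6.38% and 5.45% with DMSO and 7.87% and 8.16% with dTAG, and the conditions did not overlap. ITGA6 gave 18.0% and 16.1% with DMSO and 19.9% and 19.6% with dTAG. Of the summed level of the 4 beta chains, ITGB1 gave 46.2% and 39.6% with DMSO and 47.5% and 50.3% with dTAG. ITGB4 gave 38.3% and 43.9% with DMSO and 34.8% and 31.3% with dTAG. ITGB5 gave 15.4% and 16.4% with DMSO and 17.6% and 18.3% with dTAG. The conditions also did not overlap for the shares of ITGA6, ITGB1, ITGB4 and ITGB5. Shares of one sum are tied to each other. The lower ITGB4 share therefore goes with the higher shares of ITGB1 and ITGB5, and its own CPM overlapped. ITGB6 gave under 0.1% in every library. For the hemidesmosomal pair, the ratio of ITGA6 to ITGB4 per length was 0.911 and 0.784 with DMSO and 1.10 and 1.20 with dTAG. For the pair of ITGAV and ITGB5, the ratio was 0.860 and 0.673 with DMSO and 0.582 and 0.605 with dTAG. The ratio to ITGB1 was 0.93 and 1.36 with DMSO and 0.79 and 0.84 with dTAG for ITGA5. For ITGA2 it was 0.268 and 0.295 with DMSO and 0.319 and 0.309 with dTAG. For ITGA3 it was 1.95 and 2.60 with DMSO and 1.92 and 1.68 with dTAG. The conditions did not overlap in any of these pairs, and other gene pairs were not examined. Apart from ITGA2 and ITGB1, the genes of a pair differ clearly in length and GC content. The part of these trends in the ratios was not tested.

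The other 17 integrin subunit genes were largely silent or uncalled. Of the 10 that were tested, 0 were called in either direction by edgeR's quasi-likelihood test or by DESeq2. By edgeR, 3 of the 10 had an unadjusted p under 0.05, beside 3355 of all 12612 tested genes, of which 7.1% were called. The median log2 fold change of these 10 was -0.16, from -0.72 to 0.24. The lowest were ITGB2, the beta chain of leukocytes, at -0.72 (adjusted p = 0.088), ITGA7 at -0.56 (adjusted p = 0.086) and ITGA2B, the platelet alpha chain, at -0.54 (adjusted p = 0.14, all from edgeR). Over the 15 alternatives, ITGA7 was called in 4 and ITGB2 in 3, and ITGA2B in none. ITGA10 had a log2 fold change of -0.47 and ITGA9 of -0.20. ITGA1, a collagen-binding partner of ITGB1, had 1020 and 847 counts with DMSO and 1050 and 1055 with dTAG, a log2 fold change of 0.24 (adjusted p = 0.29, edgeR), and was called without DMSO replicate 1 alone of the alternatives. ITGA11, ITGAX, ITGAE and ITGB8 had log2 fold changes of 0.012, -0.11, -0.046 and -0.064, and each changed sign when single libraries were left out. The 7 untested genes (ITGA4, ITGA8, ITGAL, ITGAM, ITGAD, ITGB7 and ITGB3) had at most 91 counts in any library, and ITGB3 had 0 in all.

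Genes that act with integrins were taken from 4 further lists. The lists were chosen with earlier results of these data known, so their calls and shares are a description. Of 31 tested genes of matrix ligands, 3 were called higher and 0 lower, where 3.44% and 3.66% of all tested genes were. In either direction this was 9.68% of the list, beside 7.1% of all tested genes. No list was tested as a set. The list's median log2 fold change was 0.014. CCN1, a matricellular integrin ligand, rose from 16.3 and 17.9 CPM with DMSO to 33.7 and 27.4 CPM with dTAG, a log2 fold change of 0.84 (standard error 0.12, adjusted p = 1.4e-04, edgeR). Its dTAG libraries were both well above DMSO but differed from each other. LAMB3, a chain of the laminin bound by ITGA6 with ITGB4 and by ITGA3 with ITGB1, rose from 38.7 and 44.0 CPM to 64.2 and 57.8 CPM, a log2 fold change of 0.56 (standard error 0.094, adjusted p = 0.0010, edgeR). THBS1, a matricellular protein, rose from 17.1 and 15.8 CPM to 23.3 and 21.1 CPM (log2 fold change 0.43, standard error 0.11, adjusted p = 0.028, edgeR), and 60.4% of its interval is shared with FSIP1 on the opposite strand.

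Of 60 tested genes of the cytoplasmic adhesion machinery, 5 were called higher and 1 lower, with a median log2 fold change of -0.0084. In either direction this was 10.0% of the list, beside 7.1% of all tested genes (3.44% higher and 3.66% lower). VCL (vinculin, which links adhesions to actin) stood at 245.4 and 213.1 CPM with DMSO and 336.5 and 307.4 CPM with dTAG, a log2 fold change of 0.49 (standard error 0.097, adjusted p = 0.0042, edgeR). FYN, a Src family kinase, stood at 55.6 and 52.7 CPM with DMSO and 69.8 and 81.0 CPM with dTAG, a log2 fold change of 0.48 (standard error 0.091, adjusted p = 0.0031, edgeR). Both genes were higher in each dTAG library than in either DMSO library. PARVA (parvin alpha, a partner of integrin-linked kinase), TNS4 (a tensin) and RAP1B (a small GTPase upstream of integrin activation) rose by 0.39, 0.37 and 0.35 on the log2 scale (adjusted p = 0.0068, 0.043 and 0.020, edgeR). For TNS4, leaving out 1 library gave 0.17 to 0.54. GIT1, an adaptor of focal adhesions, fell by 0.35 on the log2 scale (adjusted p = 0.026, edgeR), and 20.8% of its interval is shared with ANKRD13B on the opposite strand. After removal of GC and length trends, GIT1 was at -0.085 and not called (adjusted p = 0.39, edgeR), and with ERCC totals as library sizes it was at 0.29, below the median of all genes under that scaling (0.63).

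Of 18 tested genes of hemidesmosomes and of membrane partners of integrins, 2 were called higher and 2 lower, with a median log2 fold change of 0.0017. In either direction this was 22.2% of the list, beside 7.1% of all tested genes (3.44% higher and 3.66% lower). PLAUR, the urokinase receptor, stood at 41.5 and 45.4 CPM with DMSO and 60.6 and 56.4 CPM with dTAG, a log2 fold change of 0.43 (standard error 0.091, adjusted p = 0.0068, edgeR). SDC4 (syndecan 4, a coreceptor in fibronectin adhesion) stood at 100.3 and 123.1 CPM with DMSO and 155.7 and 139.2 CPM with dTAG, a log2 fold change of 0.40 (standard error 0.098, adjusted p = 0.017, edgeR). The conditions did not overlap for either gene, and for SDC4 the value was between 0.26 and 0.55 with 1 library left out. The tetraspanin gene CD82 and the proteoglycan gene CSPG4 fell by 0.60 and 0.55 on the log2 scale (adjusted p = 0.021 and 0.0094, edgeR), whereas ERCC totals as library sizes put them at 0.058 and 0.12, below the median of all genes under that scaling (0.63). With the ERCC factor as a covariate, CD82 was at -0.41 and CSPG4 at -0.24, and neither was called (adjusted p = 0.14 and 0.19, edgeR). Of 19 tested genes of integrin trafficking, 0 were called by edgeR's quasi-likelihood test or by DESeq2. By edgeR, 1 of the 19 had an unadjusted p under 0.05, beside 3355 of all 12612 tested genes, of which 7.1% were called. The log2 fold changes of the 19 ran from -0.27 to 0.19.

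**Figure D5:**
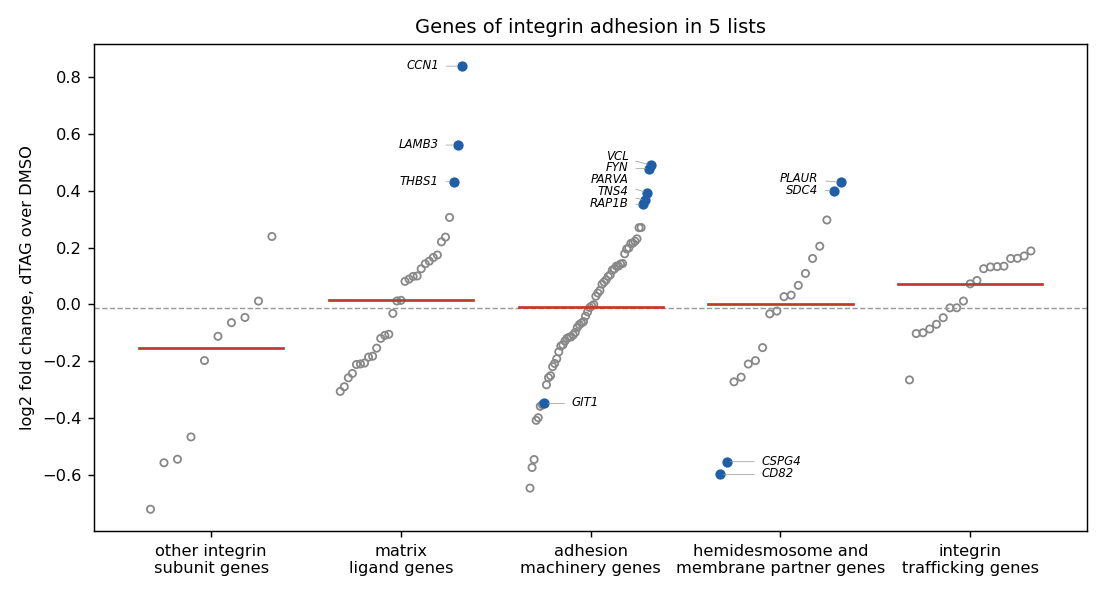
Log2 fold change of dTAG over DMSO (vertical axis) for each tested gene of the 5 lists other than the 10 genes described first, sorted within a list, with called genes filled and named, the list median as a red line and the median of all tested genes (-0.015) as a dashed line. The medians lie between -0.16 and 0.072, and CCN1, at 0.84, is the highest point.

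All 13 of these called list genes kept their sign when any one library was left out. Most of their calls were lost without dTAG replicate 1 or 2, but calls over all tested genes also fell in those fits. Without either DMSO library their calls were kept, and calls over all tested genes rose. Such fits therefore do not single out the 13 genes. With upper-quartile scaling, THBS1 and TNS4 lost their calls, and the other 11 were called. With the ERCC factor, CD82 and CSPG4 lost theirs, and after removal of GC and length trends GIT1 did. With ERCC totals as library sizes, 0 of the 13 were called, and the adjusted p was then 0.47 for CCN1 and LAMB3.

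The tested genes whose pattern over the 4 libraries was most like that of ITGBL1 included NRP1, KRT86, NPIPB13 and CREB5. Likeness was the Euclidean distance between log2 CPM values, each centred on the gene's own mean, and it ran from 0.140 for NRP1 to 0.272 for CREB5. Since ITGBL1 had a large difference between conditions, genes near it must share that difference. NRP1, a coreceptor for semaphorins and VEGF, lies on chromosome 10 from 33177491 to 33336262, on the minus strand like ITGB1 and beyond the 5′ boundary of ITGB1 at 33005792. NRP1 stood at 25.8 and 24.7 CPM with DMSO and 52.6 and 57.5 CPM with dTAG. Its log2 fold change of 1.12 was the next below that of ITGBL1 among all tested genes. CREB5, a transcription factor of the CREB family, had a log2 fold change of 1.46, and KRT86, a hair keratin gene, of 1.02. KRT86 overlaps KRT7 and KRT81, and NPIPB13 (0.98) belongs to a family of near-identical genes, so that reads of both may be shared with other genes.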

How the data were processed

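TT-Seq libraries were made from 2 DMSO and 2 dTAG cultures. The labels name nuclear RNA, whereas the study's methods describe total RNA from cells lysed in TRIzol, from which the marked RNA was purified. The authors used Trim Galore 0.6.4 for trimming, STAR for mapping to hg38 and featureCounts (Subread 1.6.3) for counting over whole protein-coding genes and 92 ERCC RNAs. The deposited values are raw counts without normalization, and strand handling is not given in the sources used here. Of 19901 genes, 19784 overlapped the same identifier in GENCODE 44. Gene coordinates are printed as the table gives them.

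Counts were analysed in R 4.3.3 with edgeR 4.0.16 (quasi-likelihood F test, two-sided, TMM factors 0.970 to 1.05, minimum of 50 counts in each of the 4 libraries) and Benjamini-Hochberg adjustment over 12612 genes. The study's methods name RUVSeq without its function or number of factors, so spike-in settings were alternatives. Gene counts were 93105627 to 102314741 per library, and precision was lower for genes with few counts. Standard errors were derived from the F statistic, as the absolute log2 fold change over its square root.

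The 10 genes and the gene lists were chosen with earlier results of these data known. Named genes were the 10 genes, every tested integrin subunit gene, called genes of the lists (with over 8, the 4 largest in each direction), genes overlapping these 10 or within 1 Mb of ITGBL1, the 5 genes most like ITGBL1 (log2 CPM with prior count 2; 1 of them is not reported here), and TRIM28. Alternatives were DESeq2 1.42.0, upper-quartile factors, ERCC totals, 1 factor from the 14 ERCC RNAs past the minimum, the likelihood ratio test, 2 other filters, a replicate block, removal of length or GC and length trends (lowess, span 0.3), and leaving out each library. A replicate block with crossed numbers was added after seeing the data. The fits were tested on simulated data.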

Additional observations from a re-analysis of the deposited data

Results flagged for a closer look

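NALCN, 36.1 kb from ITGBL1, was outside the fit because its counts were under the minimum, and it had 77 counts summed over the dTAG libraries against 48 over the DMSO libraries. FGF14, which overlaps the end of ITGBL1 on the opposite strand, was outside the fit for the same reason and had 21 counts with dTAG against 4 with DMSO. With a minimum of 10 counts in 2 libraries, their log2 fold changes were 0.74 for NALCN (adjusted p = 0.33) and 2.39 for FGF14 (adjusted p = 0.13, edgeR's quasi-likelihood test), and without a filter beyond 1 count the adjusted p was 0.39 and 0.25.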

How the results depend on the processing

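Of the reported 434 genes higher and 461 lower, the higher genes became 691 with DESeq2, 796 with the ERCC factor, 729 with the likelihood ratio test, 673 without a filter beyond 1 count and 1346 after removal of GC and length trends. The lower genes became 864, 744 and 926 in the last 3 of these. Upper-quartile scaling gave 255 higher and 869 lower, and ERCC totals 0 and 0 (229 at an unadjusted p under 0.05). Removal of the length trend gave 639 and 419. With 1 library left out, 48 to 2798 genes were higher and 21 to 2693 lower, and a lone library was then taken to vary like the other group. The cause of these changes was not tested.

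The 5 of the 10 genes called higher became 0 with ERCC totals and 2 to 6 with 1 library left out (2 without dTAG replicate 1 or 2), and the 0 called lower became 1 with the ERCC factor or without GC and length trends, and 0 to 1 with 1 library left out. ITGBL1 was 1.83 with ERCC totals, 1.07 with the ERCC factor, 1.04 without GC and length trends and 1.11 to 1.29 with 1 library left out. The median of the integrin genes was 0.13 with upper-quartile scaling, 0.84 with ERCC totals and 0.17 to 0.28 with 1 library left out. The median of all tested genes was -0.015 as reported, -0.088 with upper-quartile scaling and 0.63 with ERCC totals. Both scalings thus shifted the tested genes in general. ITGAV reversed to -0.24 with the ERCC factor and -0.17 without both trends. With ERCC totals, which raise the median of all genes to 0.63, GIT1 (0.29), CD82 (0.058), CSPG4 (0.12), GALK1 (0.15) and TRIM28 (0.28) changed sign but lay below that median, a shift set by the scaling.

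Other integrin genes called, reported as 0, were 2 with the likelihood ratio test, 1 without a filter and 0 to 3 with 1 library left out (3 without DMSO replicate 1). Matrix ligand genes, reported as 3, were 0 with ERCC totals, 6 with the ERCC factor, 5 without the length trend, 7 without both trends and 1 to 11 with 1 library left out. Adhesion machinery genes, reported as 6, were 11 with DESeq2, 0 with ERCC totals, 12 with the ERCC factor, 11 with the likelihood ratio test, 17 without both trends and 0 to 32 with 1 library left out. Hemidesmosome and membrane partner genes, reported as 4, were 0 with ERCC totals, 7 without both trends and 0 to 11 with 1 library left out. Trafficking genes, reported as 0, were 1 without the length trend, 2 without both trends and 0 to 8 with 1 library left out.

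Replicate numbers are not said to mark a shared culture, and deviations from the condition means had a correlation of -0.25 between same-numbered libraries. A fit with a replicate block called 162 genes higher and 178 lower, 2 of the 10 genes (ITGBL1 and ITGA2) and 3 adhesion machinery genes. Of the 13 called list genes, CD82, GIT1, RAP1B, THBS1 and TNS4 were not called with it. A replicate block with crossed numbers, chosen after seeing the data, called 1587 higher and 1603 lower, with 2 other integrin, 7 matrix ligand, 22 adhesion machinery, 8 hemidesmosome and 2 trafficking genes.

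Depth limited genes with few counts, such as ITGA10 (54 to 86 counts, standard error 0.28), and ITGB6, FGF14, NALCN and 7 other integrin genes were under the reported minimum. With 2 libraries per condition, an uncalled gene is not shown to be unchanged. Of 630 further values under alternatives, 492 kept direction and call.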
